A study of Homo sapiens with 6 samples.

Results

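The regions described here were open chromatin sites of LNCaP prostate cancer cells that were listed in both control-hairpin conditions but not after knockdown of RB. ATAC-seq maps open chromatin with a transposase that cuts accessible DNA and leaves sequencing adapters there. The study used isogenic lines of LNCaP, an established androgen-sensitive line of human prostate cancer, with a hairpin against RB (shRB) or a control hairpin (shCON). The 3 groups were shRB cells kept for 72 hours in CDT, which the labels use for hormone deprivation, shCON cells kept in CDT for 72 hours with 3 hours of dihydrotestosterone (DHT), an androgen, before harvest, and shCON cells kept for 72 hours in CDT. Each group had 2 libraries, and the authors combined them into 1 peak list per group. The labels do not say whether the libraries came from separate cultures, nor whether the hairpin lines were single clones. Peaks of the 3 lists that overlapped by at least 1 bp were joined, which gave 21031 regions. The members were chosen by the presence and absence of peaks in these lists: a region was taken if it held a peak of shCON DHT and a peak of shCON CDT and none of shRB CDT, and 565 regions (2.69% of all) met this rule.

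RB is a nuclear protein that binds E2F transcription factors and recruits chromatin-modifying complexes, by which it represses genes of the cell cycle. Its loss is a known event in advanced prostate cancer that no longer depends on androgen. Androgens act through the androgen receptor, a transcription factor that binds enhancers and promoters of its target genes in prostate cells. A site that is open in hormone-deprived control cells and still open after DHT is thus open on both sides of an androgen stimulus.

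No value of the shRB CDT cells exists at the members, because the lists hold peaks and scores but no read counts, so a missing peak is a peak that did not pass the authors' threshold, not a measured loss of accessibility. The lists pool their replicates, so differences have no replicate error to be set against and are described without a p-value. Intervals are exact 95% binomial or order-statistic intervals, which cover counting error only and treat regions as independent. There were 14788 peaks in shRB CDT, 12896 in shCON DHT and 12096 in shCON CDT. The longest list was therefore the one from which the members were missing. Sequencing depth behind the lists is unknown.

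Most sites shared by the control conditions were also listed after RB knockdown. Of 7714 regions with a peak in both shCON lists, 565 were missing from shRB CDT, or 7.32% (6.75 to 7.93), and the other 7149 were in all 3 lists. The same count for the other pairs of lists gave larger shares. Of 8549 regions in shRB CDT and shCON CDT, 1400 were missing from shCON DHT, or 16.4% (15.6 to 17.2). Of 8390 regions in shRB CDT and shCON DHT, 1241 were missing from shCON CDT, or 14.8% (14.04 to 15.6). These 3 shares rest on the same 3 lists. With every list cut by score to 12096 peaks they came closer, at 9.62% (8.96 to 10.3) missing from shRB CDT, 15.5% (14.7 to 16.3) missing from shCON DHT and 12.5% (11.8 to 13.2) missing from shCON CDT.

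The members were mostly weak peaks in both control conditions. The authors' deposited score runs from 413 to a cap of 1000, and a peak's score percentile is given here as the percentage of peaks in its own list that score lower, so that a peak at the cap stands at 73.03 in shCON DHT and 67.5 in shCON CDT. In shCON DHT the median score of the members was 564, with quartiles of 481 and 720. In shCON CDT it was 591, with quartiles of 488 and 729. As percentiles these medians were 34.03 (31.6 to 35.9) in shCON DHT and 32.5 (29.1 to 35.3) in shCON CDT. The regions of all 3 lists had median scores of 949 in shCON DHT and 1000 in shCON CDT. Low percentiles were also found in the other regions of 2 lists, with a median of 38.7 (37.2 to 40.6) in shCON DHT for those missing from shCON CDT and of 34.995 (32.97 to 36.2) in shCON CDT for those missing from shCON DHT. Of the 565 members, 332 lay below the 50th percentile in both lists and 47 at or above it in both. Another 111 were at or above it in shCON DHT alone and 75 in shCON CDT alone. This split was not counted for other regions. For the regions of all 3 lists, the lower quartile of the percentiles was 50.1 in shCON DHT and 48.6 in shCON CDT.

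**Figure D1:**
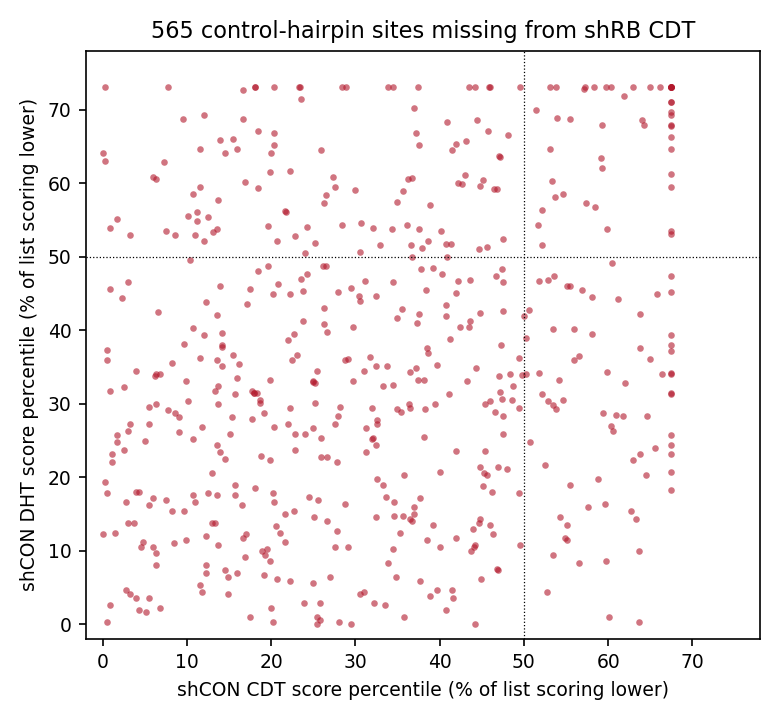
Score percentile of each of the 565 members in shCON DHT (vertical axis) against shCON CDT (horizontal axis), in percent of the list scoring lower. Dotted lines mark 50; 332 members lie below both lines and 47 at or above both, and the points that line up at the top and right edges are peaks at the score cap.

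The members' strengths in the control conditions were positively but loosely related. Spearman's rho between the percentiles was 0.205 over the 565 members, and 0.496 over the 7149 regions of all 3 lists. These values describe peaks of the same libraries, and the score cap ties many of them. At the cap stood 32 of the members' shCON DHT peaks and 32 of their shCON CDT peaks, and 6 members were at the cap in both lists, beside 2490 of all 7714 regions of both shCON lists. A further 26 reached the cap in shCON DHT alone and 26 in shCON CDT alone, which left 507 (89.7%) at the cap in neither.

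The share missing from shRB CDT was much larger among weak peaks than among strong ones. Regions were banded by their weaker percentile, the lower of the percentiles in the 2 lists that hold them. Where it was under 20, 264 of 1021 regions were missing from shRB CDT, or 25.9% (23.2 to 28.7). From 20 to under 40 it was 195 of 1340, or 14.6% (12.7 to 16.6). At 40 or more, without both peaks at the cap, it was 100 of 2863, or 3.49% (2.85 to 4.23), and with both at the cap 6 of 2490, or 0.241% (0.0885 to 0.524).

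At every band the share missing was smaller than for the other pairs of lists. Under 20, the shares missing from shCON DHT and from shCON CDT were 46.97% (44.1 to 49.9) and 42.2% (39.2 to 45.2). From 20 to under 40 they were 31.03% and 30.4%, and at 40 or more 12.4% and 11.3%. At the cap in both holding lists they were 1.78% (1.35 to 2.30) and 0.902% (0.590 to 1.32). With lists cut to one length, where the split by band was added after the data were examined, the order held in each band, but in 2 bands the intervals of the shares missing from shRB CDT and from shCON CDT then overlapped. Under 20 these cut-list shares were 32.7% (29.6 to 35.8) missing from shRB CDT and 36.3% (32.1 to 40.7) missing from shCON CDT, and at the cap 0.361% (0.165 to 0.685) and 0.902%. Percentiles were still those of the full lists. The lowest scores left were 500 in shRB CDT, 433 in shCON DHT and 413 in shCON CDT. Under 20, regions fell from 1055 to 504 for those tested against shCON CDT and from 1021 to 900 for the members' pair. That band thus held unlike peaks in the 2 comparisons. From 20 upwards, the shares missing from shCON CDT were the same as in the full lists.

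**Figure D2:**
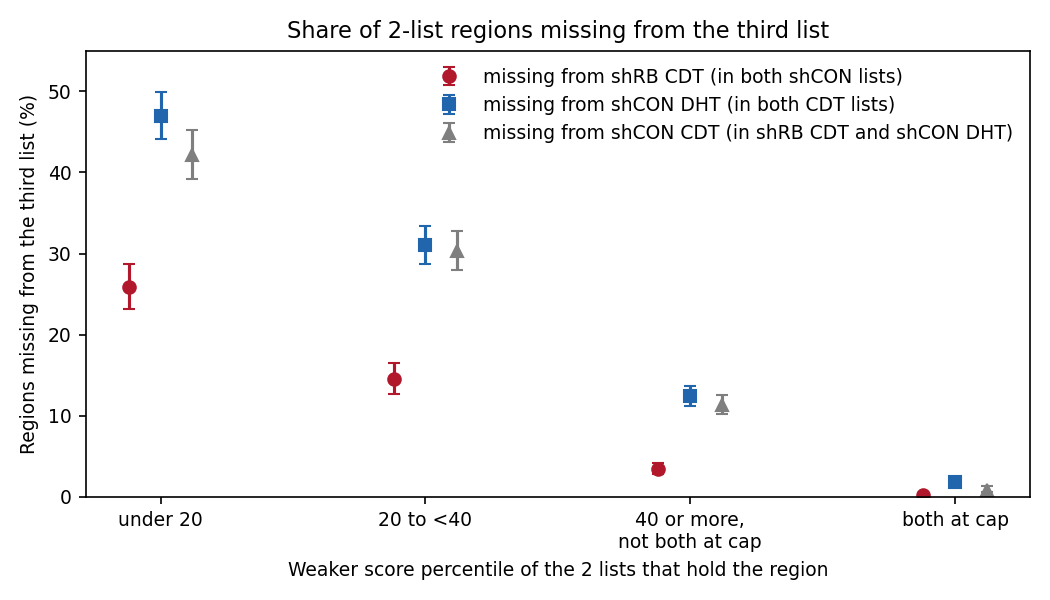
Percentage of regions held by 2 lists that were missing from the third, in 4 bands of the weaker score percentile, with exact 95% binomial intervals, for regions missing from shRB CDT (circles), shCON DHT (squares) and shCON CDT (triangles). The circles run from 25.9% under percentile 20 to 0.241% at the cap and are lowest in each band.

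The members' peaks were also narrow. Their median width was 681 bp (654 to 711) in shCON DHT and 772 bp (742 to 801) in shCON CDT, against 958 bp and 1097 bp at the regions of all 3 lists. The regions missing from shCON CDT had a median of 734 bp (716 to 752) in shCON DHT, and those missing from shCON DHT had one of 875 bp (846 to 899) in shCON CDT. Narrow peaks were also missing more often within bands of score. Among regions with a weaker percentile under 20, 206 of 561 (36.7%, 32.7 to 40.9) were missing where the narrower shCON peak was under 750 bp, and 20 of 191 (10.5%, 6.51 to 15.7) where it was 1000 bp or more. From 20 to under 40 these shares were 20.4% (17.3 to 23.8) and 7.03% (4.46 to 10.4). At 40 or more, without both at the cap, they were 6.83% (5.38 to 8.54) and 0.941% (0.431 to 1.78). Widths and scores come from the same libraries. A wide peak also has more bases with which to meet a peak of another list, and whether this shaped the shares was not tested.

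**Figure D3:**
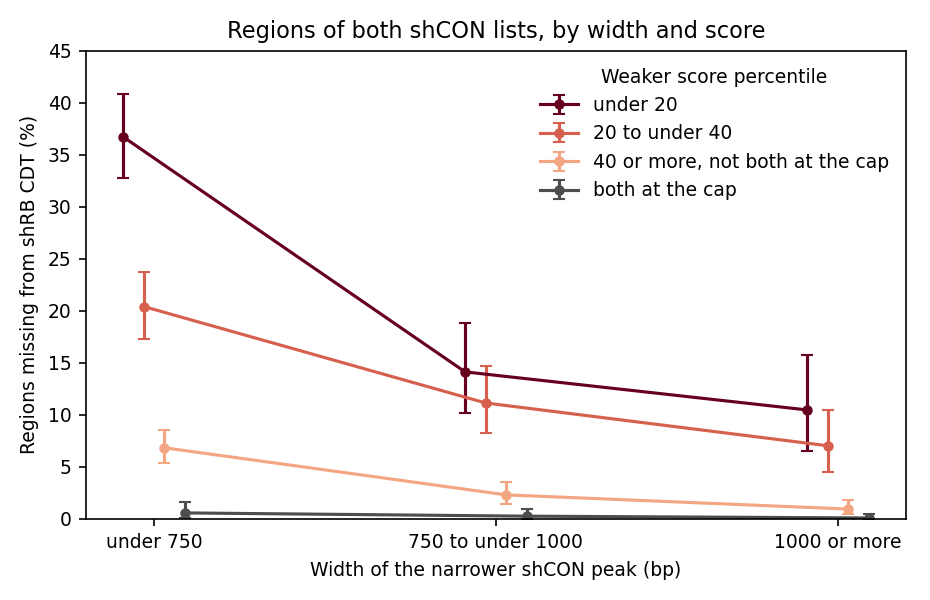
Percentage of regions of both shCON lists that were missing from shRB CDT, by width of the narrower shCON peak in bp, with exact 95% binomial intervals, 1 line per band of the weaker score percentile. In the weakest band the share is 36.7% for peaks under 750 bp and 10.5% for peaks of 1000 bp or more.

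Most members were simple, with 1 peak in each control list. This held for 528 of the 565; 21 had 2 shCON DHT peaks and 1 shCON CDT peak, 15 had 1 and 2, and 1 had 2 of each. In 270 of the 528 the narrower peak lay wholly inside the wider one, and in 15 the peaks overlapped by less than 50% of the narrower. The smallest overlap was 26 bp. Such nesting was not particular to the members. The median overlap was 100% of the narrower peak at the members and at regions of all 3 lists. It was also 100% at the regions missing from shCON DHT and from shCON CDT. The bases the peaks had in common were 0.664 (0.629 to 0.687) of those covered by either peak at the median, against 0.751 (0.746 to 0.756) at regions of all 3 lists with 1 peak in each shCON list. The same measure was 0.665 (0.649 to 0.679) for the shRB CDT and shCON DHT peaks of regions missing from shCON CDT, and 0.724 (0.712 to 0.739) for the shRB CDT and shCON CDT peaks of those missing from shCON DHT.

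The shCON DHT peak was narrower than the shCON CDT peak at 298 of the 528 members and wider at 229. The median width ratio of shCON DHT over shCON CDT was 0.949 (0.898 to 0.981) at the members and 0.894 (0.888 to 0.903) at the regions of all 3 lists. The intervals of these ratios overlapped in the bands with a weaker percentile under 40 and at the cap. At 40 or more, without both at the cap, the ratio was 1.02 (0.928 to 1.11) over 96 members and 0.896 (0.883 to 0.908) over 2467 regions of all 3 lists. There the shCON DHT peak was the wider at 51 of the 96 members and at 820 of the 2467 other regions. The most unequal member with 1 peak per list lay on chromosome 12 from 10516427 to 10517725, with a shCON DHT peak of 1267 bp and a shCON CDT peak of 182 bp. At the other extreme, the member on chromosome 16 from 47566179 to 47568077 had a shCON DHT peak of 279 bp and a shCON CDT peak of 1899 bp. These extremes were picked after their values were seen.

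The strongest members were a small group of sites at or near the cap in both control lists. The 10 with the highest weaker percentile are given by position in hg19, counted from 1, with ties broken by width. The first, on chromosome 1 from 101490745 to 101492313, was at the cap in both lists, with widths of 1271 bp in shCON DHT and 1569 bp in shCON CDT. It was the widest pair of peaks at the cap in both lists that shRB CDT lacked. No region of all 3 lists lay within 500 kb of it, and the nearest shRB CDT peak was 128.6 kb away.

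The next members were as strong in shCON CDT but below the cap in shCON DHT. On chromosome 22 from 25348171 to 25349787 the shCON DHT score was 937 and the shCON CDT score 1000, with 144.9 kb to the nearest shRB CDT peak. On chromosome 7 from 130080330 to 130081573 they were 915 and 1000, with 33.7 kb to a shRB CDT peak that scored only 467. For the chromosome 1 and chromosome 22 members the nearest shRB CDT peak was at the cap.

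Of the remaining 7, 4 were at the cap in both lists. They were chr1:27718669-27719707, chr20:5093375-5094228, chr5:172754965-172755954 and chr17:26684099-26684950. Their peaks were 649 to 888 bp wide in shCON DHT and 783 to 990 bp wide in shCON CDT, and the nearest shRB CDT peaks lay 5.55 to 43.5 kb away. The last 3 were at the cap in shCON CDT only. The shCON DHT score was 964 at chr16:69457990-69458929, 912 at chr15:65117635-65118422 and 942 at chr19:36239100-36239668. The chromosome 19 site was the narrowest of the 10, at 483 bp in shCON DHT and 478 bp in shCON CDT, and stood 2.22 kb from a shRB CDT peak. In all, 12 members tied at the highest weaker percentile. The 6th member at the cap in both lists was left out of the 10 by its width of 447 bp in shCON DHT and lay on chromosome 2 from 30440419 to 30441183.

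The members were seldom near misses of a shRB CDT peak. The median gap from a member to the nearest shRB CDT peak was 45.4 kb (37.5 to 53.1), with quartiles of 15.4 and 110.4 kb. A shRB CDT peak lay within 1 kb of 18 members (3.19%, 1.90 to 4.99) and within 10 kb of 90 (15.9%, 13.01 to 19.2). Regions of the other pairs stood about as far from the list that lacked them. The median gap was 43.3 kb (40.3 to 48.4) for those missing from shCON DHT and 47.1 kb (42.9 to 51.5) for those missing from shCON CDT. Among the 18 members with a shRB CDT peak within 1 kb, that peak was at the cap in 4.

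**Figure D4:**
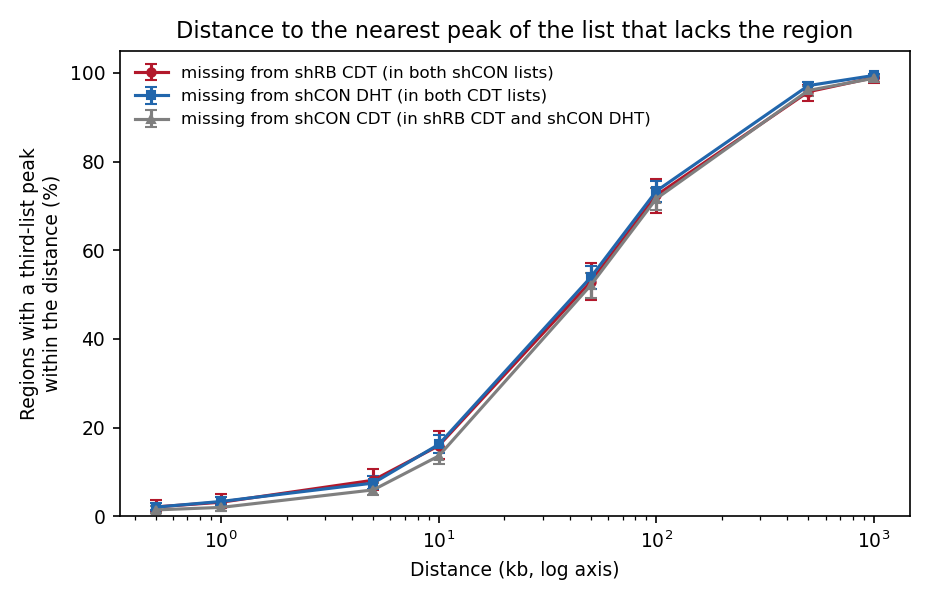
Percentage of regions held by 2 lists that have a peak of the third list within a given distance in kb (log axis), with exact 95% binomial intervals, for regions missing from shRB CDT (circles), shCON DHT (squares) and shCON CDT (triangles). The 3 curves run together, and the members reach 3.19% at 1 kb and 72.4% at 100 kb.

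Few regions lay close to the rule's threshold of 1 bp on either side. Another overlap rule still changed the membership: with a 50% reciprocal overlap, 446 of the 565 members overlapped a member of that setting. The members closest to a shRB CDT peak were chr1:155063987-155064554 at 41 bp, chr17:60556241-60556886 at 46 bp and chr3:113465509-113466421 at 57 bp. Among regions of all 3 lists, the smallest overlap of shRB CDT peaks with shCON peaks was 179 bp, on chromosome 1 from 246981180 to 246981372. The next were 188 bp and 191 bp, at chrY:10025103-10025308 and chrY:10031887-10032086. At the far end, the 3 members most distant from any shRB CDT peak were below the score cap in both lists. On chromosome 13 from 64314722 to 64316114 the gap was 2325 kb, with scores of 531 in shCON DHT and 557 in shCON CDT. On chromosome 9 from 41954632 to 41954873 it was 2272 kb, with scores of 639 and 903. On chromosome 4 from 33472481 to 33473057 it was 2070 kb, with scores of 441 and 603.

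The members were spread over the genome, with every chromosome holding at least 2. The share of regions of both shCON lists that was missing from shRB CDT ranged among autosomes from 4.51% (1.67 to 9.56) on chromosome 18, 6 of 133, to 11.8% (8.75 to 15.5) on chromosome 6, 45 of 381. Chromosome 6 held the most members of any chromosome, and its interval lay above the 7.32% of all regions. The interval of chromosome 1 lay below it, with 41 of 803 missing, or 5.11% (3.69 to 6.86). The other 22 chromosomes had intervals that reached 7.32%. These are 24 intervals read side by side, with no correction. Chromosome 6 also had the smallest share of regions at the cap in both shCON lists, 21.8%, against 35.0% on chromosome 1. At the shares of its score bands, chromosome 6 would hold 31.2 members against the 45 found, a ratio of 1.44, and chromosome 1 would hold 57.5 against 41, a ratio of 0.713. These ratios have no intervals and were not the extremes. The ratio was 0.614 on chromosome 18 (6 members) and 1.88 on chromosome Y (2 members). It was 1.37 on chromosome 4 and 1.36 on chromosome X.

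**Figure D5:**
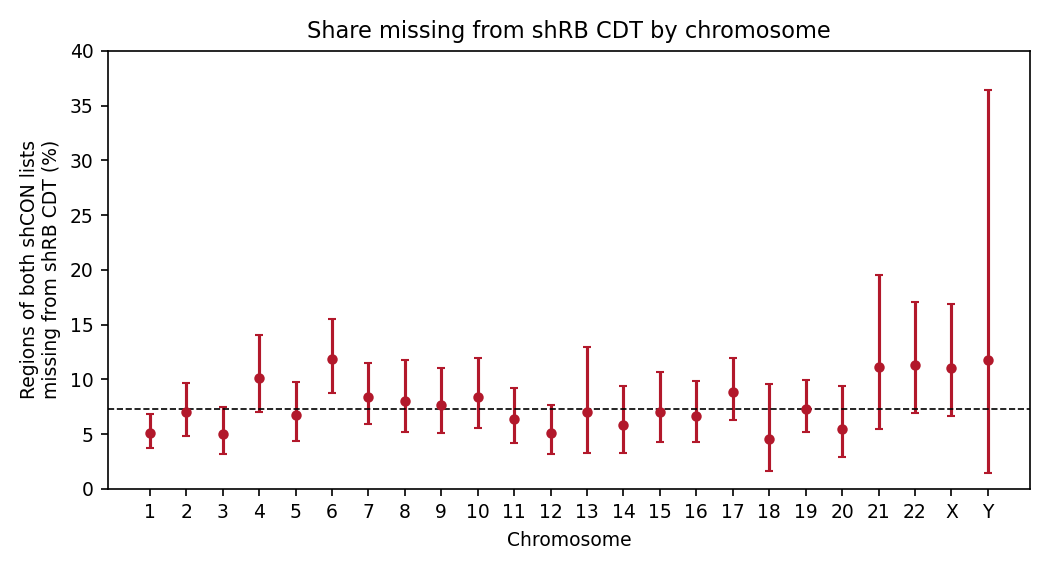
Percentage of regions of both shCON lists that were missing from shRB CDT on each chromosome, with exact 95% binomial intervals. The dashed line is the 7.32% of all regions; chromosome 6 (11.8%) lies above it and chromosome 1 (5.11%) below it with their whole intervals.

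The interval of the gene-rich chromosome 19 held the 7.32% of all regions. So did those of the gene-poor chromosomes 4, 13 and 18 and of regions near the outermost listed peaks. On chromosome 19 the share missing was 7.31% (5.22 to 9.89), 38 of 520. On chromosomes 4, 13 and 18 together it was 8.16% (6.06 to 10.7), 47 of 576. Singly it was 10.2% (7.05 to 14.04) on chromosome 4, 7.03% (3.27 to 12.9) on 13 and 4.51% (1.67 to 9.56) on 18. Within 3 Mb of the outermost listed peaks of a chromosome it was 7.37% (5.61 to 9.46), 56 of 760. On chromosome X 18 of 163 regions were missing (11.04%, 6.68 to 16.9), and on chromosome Y 2 of 17, too few for a share.

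Most members had no other member as a neighbour, but members were only 7.32% of the regions of both shCON lists. Their runs were not compared with a random order or with the other pairs of lists. Taking the 7714 regions of both shCON lists in order along each chromosome, 463 members had a region listed in shRB CDT, or a chromosome end, on each side. Another 84 formed 42 neighbouring pairs and 18 formed 6 runs of 3. No run was longer than 3. The longest run by distance spanned 4.37 Mb on chromosome 7 from 66843025 to 71217875 and still held 2 shRB CDT peaks, beside 9 shCON DHT and 6 shCON CDT peaks. On chromosome 9 from 27589415 to 28840487, a span of 1.25 Mb, the run held no shRB CDT peak, 3 shCON DHT peaks and 4 shCON CDT peaks. On chromosome 12 from 19725844 to 19916960 the run was compact, with 3 members in 0.191 Mb, again without a shRB CDT peak. The scores of that run were low, between 426 and 573 in shCON DHT and between 437 and 484 in shCON CDT.

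Of the 1 Mb windows counted, 1589 held no member, 400 held 1, 61 held 2, 13 held 3 and 1 held 4. Low counts per window follow in part from the small number of members. They were not compared with those of other regions. The window with 4 was on chromosome 11 from 118 to 119 Mb, where 15 regions were in both shCON lists and shRB CDT had 20 peaks. Ties at 3 were ordered by the share missing, which was decided with the values in view. On that order the next were chromosome 17 from 36 to 37 Mb, with 3 of 4 regions missing, and chromosome 12 from 19 to 20 Mb, with 3 of 5. In the chromosome 17 window shRB CDT had 10 peaks, shCON DHT 9 and shCON CDT 10, so that window was not a stretch without shRB CDT peaks.

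A larger share of the members than of the common sites had no site of all 3 conditions in their surroundings. The mean number of regions of all 3 lists within 500 kb was 4.68 around the members and 5.16 around the regions of all 3 lists themselves, with a median of 4 for both. No such region lay within 500 kb of 69 members (12.2%, 9.63 to 15.2). This share was 9.21% (7.75 to 10.9) for the regions missing from shCON DHT, 9.43% (7.86 to 11.2) for those missing from shCON CDT and 6.60% (6.04 to 7.20) for those of all 3 lists. The members' interval overlapped those of the other regions of 2 lists and lay above that of the common regions. Within bands of the weaker percentile, the share without such a neighbour was 10.2% of members and 8.19% of common regions under 20, 14.4% and 6.81% from 20 to under 40, and 13% and 7.06% at 40 or more without both at the cap. These shares rest on 264, 195 and 100 members and were given no intervals. The mean number of such neighbours was lower around members under 20 (4.92 against 5.33) and from 20 to under 40 (4.05 against 5.17). It was not lower at 40 or more (5.23 against 5.10). Regions listed in shRB CDT alone had a mean number of 2.84 within 500 kb of a member and 2.99 within 500 kb of a region of all 3 lists. None of them lay within 500 kb of 21.9% (18.6 to 25.6) of the members and 15.9% (15.1 to 16.8) of the regions of all 3 lists. This count was not made for the other regions of 2 lists, nor within bands of score. Whether it is particular to the members was therefore not tested.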

How the data were processed

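ATAC-seq peaks of 6 LNCaP libraries in 3 groups of 2 were used as 3 deposited lists, 1 per group. Per the labels, these were thresholded at an irreproducible discovery rate (IDR) of 0.1, filtered, merged and scored. The list names also carry the tag ppr, and whether the IDR compared the 2 libraries themselves was not established here. Positions are in hg19, as the submitters' processing notes name it. Which aligner and caller made the peaks, and whether reads were shifted for the transposase, is not given in the sources used here. The authors deposited a whole-number score per peak, whose computation is not stated, and it served only to rank peaks within a list. The lists differ in length, and depth is unknown.

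Regions, overlaps, gaps, bands, runs and neighbours were computed in Python 3.11.15 (pandas 2.3.3, numpy 2.4.6, scipy 1.17.1) and tested on 2000 simulated regions (11 of 11 checks passed). A region with several peaks of a list took the values of its highest-scoring peak. Replicates are pooled in each list, so values have no SD and no test was made. The members, comparisons and settings were chosen with earlier results of these data known. Named regions were the 10 members with the highest weaker percentile, the 3 nearest to and the 3 farthest from a shRB CDT peak, the 3 regions of smallest overlap, the 3 windows with most members and the longest runs. Genes, gene lists, motifs and sequences were not analysed here, since the gene table and promoter sequences at hand are of GRCh38 and positions were not converted.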

Additional observations from a re-analysis of the deposited data

How the results depend on the processing

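The settings reuse the same lists, so they are not independent, and only the cut to 12096 peaks was made to give lists of equal length. In all 9 settings tried, the share of holding-pair regions missing from shRB CDT was smaller than the shares missing from shCON DHT and from shCON CDT. It was 8.002% with a 50% reciprocal overlap, 6.73% where a peak within 5 kb counted as present, 6.23% with scores of at least 540, 9.62% in lists cut to 12096 peaks and 1.06% (47 members) where only the 2 holding lists were cut to their top 50%; in the other 4 it stayed within its interval. The shares missing from shCON DHT that moved were 19.3% (reciprocal overlap), 15.1% (5 kb), 15.5% (cut lists) and 4.48% (holding lists cut), and those missing from shCON CDT were 13.9% (5 kb), 17.8% (top 50% of each list), 12.5% (cut lists) and 4.04% (holding lists cut). With every list cut to its top 50% there were 329 members, of which 47 overlapped the 565, as low-scoring shRB CDT peaks then no longer counted. Membership also changed in other settings. With a 50% reciprocal overlap, 446 of 569 members overlapped the 565, and with scores of at least 540, 216 of 390 did. The members' median score percentiles in shCON DHT were 40.1 (reciprocal), 52.01 (540), 67.5 (top 50%), 38.7 (cut lists) and 68.8 (holding lists cut), and in shCON CDT 37.4, 47.1, 64.4 and, holding lists cut, 61.8; cuts on score raise these by construction. Median widths that moved were 749.5, 799 and 714.5 bp in shCON DHT and 849, 919 and 811 bp in shCON CDT (540, top 50%, cut lists). A shRB CDT peak lay within 5 kb of 8.14% and within 10 kb of 15.9% of members, and windows of 5 Mb held up to 8 members.

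No paired analysis was possible because replicates 1 and 2 share 1 list, and leaving out a replicate was not run for the same reason. Settings planned for transcription starts and motifs were not run.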
